A study of Homo sapiens with 6 samples.

Results

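Calponins, transgelins, caldesmon and tropomyosins are proteins that bind along actin filaments, and coactosin-like protein is a small actin-binding protein of the family that also holds cofilin. The RNA of 10 such genes is described here, namely the calponin genes CNN2 and CNN3, the transgelin genes TAGLN and TAGLN2, the caldesmon gene CALD1, the tropomyosin genes TPM1 to TPM4, and COTL1, among the 19498 genes of the deposited table. The genes were listed by name, chosen by their family and with their values in knockout and wild-type libraries and in the single replicates already known, so the differences between genotypes below are descriptions and no p-value is given for them. K562 is an established line of human leukaemia cells, started from a patient with chronic myeloid leukaemia, whose BCR::ABL1 fusion drives growth. The study compared K562 cells labelled ACK KO with K562 cells labelled WT, in 3 biological replicates each, by sequencing of polyadenylated RNA. ACK is the product of TNK2, a cytoplasmic tyrosine kinase that interacts with active Cdc42. Per the labels, cells of both genotypes were cultured in RPMI with 10% FBS (serum) and glutamine, and were collected alongside cells taken for chromatin profiling. The position of the edit, the number of clones behind each label and whether the replicates were separate cultures are not stated, so effects of the genotype and of the particular clone cannot be told apart, and the errors measure the spread between these libraries, which may be technical.

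Tropomyosins are coiled coils that polymerise head to tail along the actin filament and decide which myosins, cofilins and crosslinkers can reach it. Calponins and caldesmon restrain the actin-activated ATPase of myosin and stabilise filaments, and the transgelins share the calponin fold. In smooth muscle these proteins regulate contraction, while blood cells use broadly expressed members such as TAGLN2, TPM3, TPM4 and CNN2. Many genes of this group, among them those of calponins and tropomyosins, are targets of serum response factor (SRF), which binds a DNA element called the CArG box and is switched by the actin-sensing coactivators MRTFA and MRTFB.

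The DNA just upstream of 4 chosen genes that differed between genotypes is shown, since SRF control of this group is read from such sequence. CALD1, which also differed, is not printed. The RefSeq table of gene starts (GRCh38.p14) holds 19 windows for 9 of the 10 genes, each from 250 bases before to 50 bases after a start, and none was matched to TAGLN. Only the 250 bases before the first listed start are printed, on the gene's own strand. In CNN2 (chr19:1026358-1026607, plus strand) and TPM4 (chr19:16067288-16067537, plus strand) the capitals mark a CArG box. In COTL1 (chr16:84618079-84618328, minus strand) and CNN3 (chr1:94927111-94927360, minus strand) they mark GC boxes, GGGCGG or its reverse complement CCGCCC.
CNN2: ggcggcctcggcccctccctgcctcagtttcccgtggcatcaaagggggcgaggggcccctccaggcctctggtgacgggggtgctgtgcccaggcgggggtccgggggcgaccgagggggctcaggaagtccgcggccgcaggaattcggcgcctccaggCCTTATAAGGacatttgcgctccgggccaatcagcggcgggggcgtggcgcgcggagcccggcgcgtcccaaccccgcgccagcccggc
TPM4: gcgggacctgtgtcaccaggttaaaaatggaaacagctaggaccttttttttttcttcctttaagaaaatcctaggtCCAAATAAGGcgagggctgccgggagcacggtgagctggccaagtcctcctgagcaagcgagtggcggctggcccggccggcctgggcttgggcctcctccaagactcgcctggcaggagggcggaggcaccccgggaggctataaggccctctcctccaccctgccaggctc
COTL1: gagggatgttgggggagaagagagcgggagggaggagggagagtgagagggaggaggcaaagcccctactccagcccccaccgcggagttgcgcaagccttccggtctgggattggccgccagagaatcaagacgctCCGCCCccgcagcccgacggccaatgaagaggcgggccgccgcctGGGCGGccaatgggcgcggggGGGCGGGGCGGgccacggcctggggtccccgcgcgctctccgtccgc
CNN3: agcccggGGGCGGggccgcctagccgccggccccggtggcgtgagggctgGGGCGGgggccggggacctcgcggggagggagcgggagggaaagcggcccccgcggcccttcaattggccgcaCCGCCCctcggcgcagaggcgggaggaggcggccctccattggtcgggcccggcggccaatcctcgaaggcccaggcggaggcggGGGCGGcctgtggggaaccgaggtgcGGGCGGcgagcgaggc

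A CArG box, searched on both strands as its palindromic consensus, was found in 2 of the 19 windows, those of CNN2 and TPM4 printed above. It was found in 1.29% of the 35116 windows searched, which leave out a chromosome that holds none of the listed genes. The CArG box begins 89 bases before the start of CNN2 and 173 bases before that of TPM4, and overlaps no GC box. Both genes had lower RNA in the KO-labelled libraries. GC boxes were found in 14 of the 19 windows and in 45% of the windows searched. The motif TTCNNNGAA, the core that STAT factors bind, was in none of the 19 windows and in 7.66% of the windows searched, which says only that these letters are absent from these stretches. Other starts, enhancers and binding itself were not examined.

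Values are read counts that the authors normalised for each library, and their sums were similar, at 43.5M to 49.5M in the KO-labelled and 46.7M to 53.3M in the WT libraries. TNK2 itself had 741, 506 and 598 in the KO-labelled libraries and 830 (829.7), 613 and 642 in the WT libraries, a log2 difference of -0.18 (exact two-sided permutation p = 0.4, where 0.1 is the smallest that 3 against 3 libraries allow), so its mRNA does not check the labels. All 16 markers of K562 identity were present, with summed values of 95109 to 150225 in the KO-labelled and 83210 to 165965 in the WT libraries. Replicate 1 of both genotypes stood apart from replicates 2 and 3, and same-numbered libraries deviated together (correlations of their deviations across genes of 0.699, 0.521 and 0.342). KO-labelled 2 with WT 3 gave 0.257 and KO-labelled 3 with WT 2 gave 0.281, so the pairing of numbers 2 and 3 is less clear than that of number 1. Differences are log2(value + 1) in KO-labelled minus WT libraries, fitted with limma to all 16658 genes that reached 10 in 3 or more libraries. A gene is called where its p, adjusted over all of them by the Benjamini-Hochberg method, is under 0.05.

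All 10 genes were tested, CALD1 through its KO-labelled values alone. Of them, 5 were called, CNN3 and CALD1 higher and CNN2, TPM4 and COTL1 lower in the KO-labelled libraries, 2 up and 3 down, against 10.3% of all tested genes called (5.37% higher and 4.96% lower). With the replicate number as a block 7 were called, TPM1 and TPM3 being lower as well, against 39.7% of tested genes (19.7% higher and 20.0% lower). The same 5 genes were those whose 3 KO-labelled values lay wholly above or below the 3 WT values, which held for 30.0% of all tested genes. All 5 differed by more than 2-fold, against 7.31% of tested genes that were called at least 2-fold. Because the genes were listed with this contrast known, nothing is read from these counts. The median log2 difference was -0.27 over the 10 genes and -0.02 over all tested genes.

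**Figure D1:**
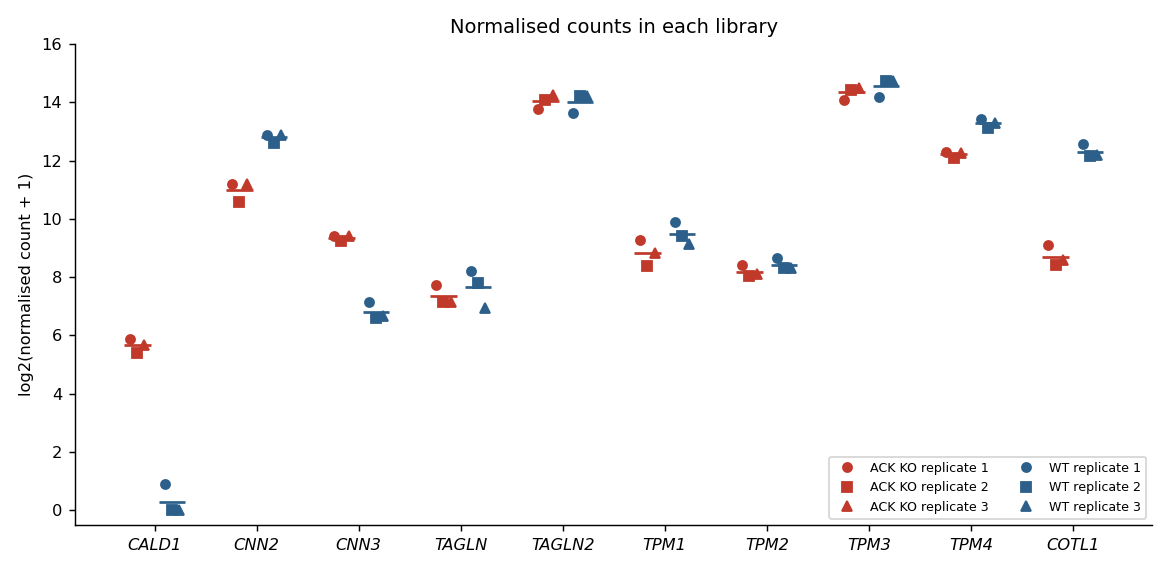
Normalised counts of the 10 genes as log2(value + 1), with ACK KO (red) left of WT (blue) for each gene, 1 symbol per replicate and a bar at the mean. CALD1 and CNN3 lie higher and CNN2, TPM4 and COTL1 lower in all 3 ACK KO libraries, while the other 5 genes overlap between the groups.

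Among the calponins, which bind actin through a calponin-homology domain and short repeats, the members went in opposite directions. CNN2 (ENSG00000064666.15, chromosome 19, 1026581 to 1039068, plus strand) encodes the calponin of leukocytes and other non-muscle cells. It had 2321, 1524 and 2346 in KO-labelled libraries 1 to 3, against 7524, 6261 and 7578 in WT libraries 1 to 3. The highest KO-labelled value was thus below the lowest WT value. CNN2 averaged 2064 ± 467 in KO-labelled and 7121 ± 745 in WT libraries (SD, n = 3 each), 3.50-fold lower with a log2 difference of -1.81 ± 0.20 (standard error). CNN3 (ENSG00000117519.16, chromosome 1, 94896949 to 94927278, minus strand) encodes acidic calponin, which is best known from neurons, smooth muscle and non-muscle cells of solid tissues. It had 685, 603 and 681 in the KO-labelled libraries, against 139, 95.3 and 100.5 in the WT libraries. The groups did not overlap, and CNN3 was 5.91-fold higher (log2 difference 2.56 ± 0.22), with means of 656 ± 46.0 and 112 ± 24.0 (SD, n = 3 each) in KO-labelled and WT libraries.

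The remaining calponin gene, CNN1, encodes the smooth muscle form. It was not on the list of members but was set down among their relatives, and it rose in the KO-labelled libraries. CNN1 had 923, 582 and 636 in the KO-labelled libraries, against 64.9, 37.9 and 67.5 in the WT libraries. The log2 difference was 3.64 ± 0.31 (limma adjusted p = 9.11e-04), and the call held in all 6 fits without 1 library. CNN3 also has a divergent non-coding neighbour, CNN3-DT, looked up after the values of CNN3 were seen and tested through its KO-labelled values alone. Its values ran from 10.5 to 24.4 in KO-labelled and from 0 to 1.17 in WT libraries, and no test is given for it.

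Counted per kb of annotated exon, calponin RNA was less abundant in the KO-labelled libraries and mixed in kind. The sum of CNN1, CNN2 and CNN3 was 1044 ± 190 (189.7) normalised counts per kb in KO-labelled and 2013 ± 215 in WT libraries (SD, n = 3 each). CNN2 made up 53.2%, 50.3% and 58.3% of it in KO-labelled libraries 1 to 3 and 96.7%, 97.4% and 97.3% in WT libraries 1 to 3. CNN1 held 19.96% to 26.7% in the KO-labelled and 0.745% to 1.09% in the WT libraries. CNN3 held 20.2% to 25.5% in the KO-labelled and 1.66% to 2.30% in the WT libraries. In the KO-labelled cells CNN1 and CNN3 together thus came close to CNN2, while nearly all calponin RNA of the WT cells was CNN2.

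**Figure D2:**
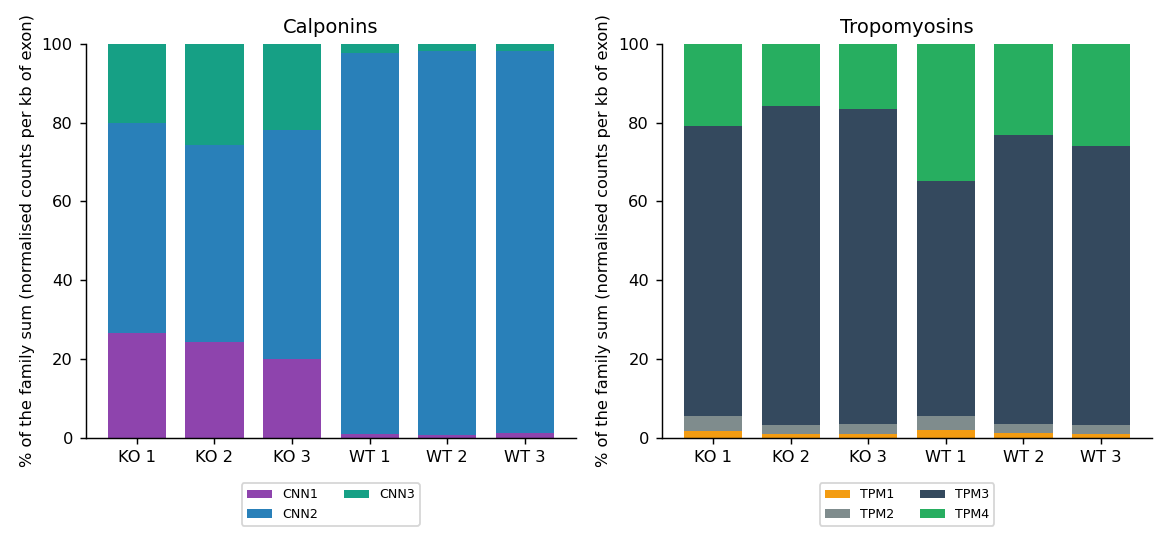
Share of each gene in the family sum of normalised counts per kb of annotated exon, in percent, for calponins (left) and tropomyosins (right), with 1 bar per library and ACK KO left of WT. CNN2 falls short of 60% of calponin RNA in every ACK KO library and exceeds 96% in every WT library, and TPM3 is the main tropomyosin in all 6 libraries.

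The transgelins resemble calponins in sequence, bundle actin, and are widely used as markers of smooth muscle (TAGLN) and of blood and other non-muscle cells (TAGLN2). Neither was called. TAGLN2 (ENSG00000158710.14, chromosome 1, 159918107 to 159925732, minus strand) had 13828, 17448.5 and 19511 in the KO-labelled libraries, against 12725, 18836.5 and 18945 in the WT libraries. The 2 sets of values interleave, and the log2 difference was 0.017 with a 95% interval of -0.48 to 0.52, or -0.14 to 0.17 with the block. Of the short sequence words of 31 bases in TAGLN2 transcripts, 9.66% are shared with its pseudogene TAGLN2P1, which stayed under 6 in all 6 libraries. TAGLN (ENSG00000149591.16, chromosome 11, 117199321 to 117204782, plus strand) had 213, 142 and 142 in the KO-labelled libraries, against 296, 221 and 121 in the WT libraries. WT replicate 3 lay below every KO-labelled value, and the 95% interval of the log2 difference (-0.29) ran from -1.19 to 0.60. Exons of TAGLN overlap those of PCSK7 on the opposite strand, which averaged 3600 (3599.6) ± 448 in KO-labelled and 3568 ± 744 in WT libraries (SD, n = 3 each), and as the counting settings are not given, the low values of TAGLN are uncertain.

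CALD1 (ENSG00000122786.20, chromosome 7, 134744252 to 134970728, plus strand) encodes caldesmon, which binds actin, myosin, tropomyosin and calmodulin. It was present at a low level in the KO-labelled cells and nearly absent in WT cells. Its values were 58.5, 41.0 and 50.6 in the KO-labelled libraries and 0.875, 0 and 0 in the WT libraries. With WT values at the bottom of the scale the size of the difference depends on the constant added before the logarithm. The log2 difference was 5.36 with 1 added, 6.16 with 0.5 and 3.37 with 5, and under a stricter filter of 50 or more in at least 3 libraries the gene was not tested. Per kb of exon, CALD1 stood at 5.08 ± 0.893 normalised counts in KO-labelled libraries (SD, n = 3), the lowest of the 10 genes there too.

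Of the tropomyosins, TPM4 fell and the other 3 overlapped between genotypes. TPM4 (ENSG00000167460.17, chromosome 19, 16067021 to 16103005, plus strand), which encodes a low molecular weight tropomyosin prominent in platelets and their precursors, had 5051, 4391 and 4958 in the KO-labelled libraries, against 10985, 8821 and 10125 in the WT libraries. The groups were well apart, and TPM4 was 2.07-fold lower (log2 difference -1.05 ± 0.13). Its means were 4799.9 ± 357 in KO-labelled and 9977 ± 1089.8 in WT libraries (SD, n = 3 each). Each of the 3 replicate numbers gave nearly the same log2 difference for TPM4, -1.12, -1.01 and -1.03. Scaled to equal library sums or by quantiles the gene was still called but lay under 2-fold. The same held without WT replicate 1 (log2 difference -0.98) and without KO-labelled replicate 2 (-0.99). Some 16.8% of its 31-base words occur in other annotated transcripts, 10.2% in 1 copy.

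TPM3 (ENSG00000143549.21, chromosome 1, 154155304 to 154194648, minus strand), whose products include the tropomyosin of slow muscle and short forms of non-muscle cells, was the most abundant tropomyosin per kb in every library. It had 17427, 21891 and 23222 in the KO-labelled libraries, against 18426, 27286 and 27026 in the WT libraries. The low value of each genotype is that of replicate 1, and the KO-labelled value was the lower within each number. The log2 difference of -0.21 was not called (95% interval -0.69 to 0.27) but was with the replicate number as a block (-0.36 to -0.05), where 39.7% of all tested genes were called. A copy, TPM3P9, averaged 690 (689.97) ± 221 in KO-labelled and 741 ± 243 in WT libraries (SD, n = 3 each).

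TPM1 (ENSG00000140416.21, chromosome 15, 63042632 to 63071915, plus strand), the source of striated muscle alpha-tropomyosin and of several non-muscle forms, had 617, 336 and 455 in the KO-labelled libraries, against 949, 686 and 558 in the WT libraries. The sets overlap through KO-labelled replicate 1 and WT replicate 3, and the value was lower in the KO-labelled library of each number. The log2 difference of -0.65 had a 95% interval of -1.35 to 0.05. With the block the interval was -1.01 to -0.28 and the gene was called, as it was without both libraries of number 1. TPM2 (ENSG00000198467.15, chromosome 9, 35681992 to 35690121, minus strand), which encodes beta-tropomyosin of muscle and fibroblasts, had 338, 264 and 272 in the KO-labelled libraries, against 407, 314 and 316 in the WT libraries. These values overlap too, and the log2 difference of -0.24 had a 95% interval of -0.74 to 0.25, or -0.55 to 0.06 with the block.

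Summed per kb of exon, tropomyosin RNA came to 3167 ± 327 normalised counts in KO-labelled and 4209 ± 472 in WT libraries (SD, n = 3 each). TPM3 accounted for 73.8% to 80.9% of it in the KO-labelled and 59.9% to 73.5% in the WT libraries, and TPM4 for 15.8% to 20.8% in the KO-labelled and 23.1% to 34.7% in the WT libraries. The shares of TPM4 did not overlap between genotypes, whereas those of TPM1 (0.808% to 1.70% in KO-labelled and 0.956% to 2.01% in WT libraries) and TPM2 (2.42% to 3.70% in KO-labelled and 2.15% to 3.42% in WT libraries) did. With the median transcript length the share of TPM1 was 2.08% to 4.41% in KO-labelled and 2.52% to 5.37% in WT libraries, above that of TPM2, and these ranges overlap as well. The file gives genes and not transcripts, so the many spliced forms of TPM1 to TPM4 cannot be followed.

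COTL1 (ENSG00000103187.8, chromosome 16, 84565594 to 84618077, minus strand) encodes coactosin-like protein, which binds filamentous actin and also 5-lipoxygenase, the first enzyme of leukotriene synthesis. It had the largest negative difference of the 10 genes. COTL1 had 545, 341 and 388 in the KO-labelled libraries, against 6018, 4599.5 and 4623 in the WT libraries. Its means were 424 ± 107 in KO-labelled and 5080.01 ± 812 in WT libraries (SD, n = 3 each), 12.1-fold lower, and the groups were far apart. The log2 difference was -3.60 ± 0.22, and -3.46, -3.75 and -3.57 in the replicate numbers 1, 2 and 3. The 5-lipoxygenase gene ALOX5 had 127, 21.4 and 8.22 in the KO-labelled libraries, against 351, 82.2 and 64.0 in the WT libraries, a log2 difference of -2.06 ± 1.06 that was not called (limma adjusted p = 0.306). It was called with the block (limma adjusted p = 0.00235) and without both libraries of number 1 (0.0122), and it ran from -3.11 without KO-labelled replicate 1 to -1.21 without KO-labelled replicate 3.

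**Figure D3:**
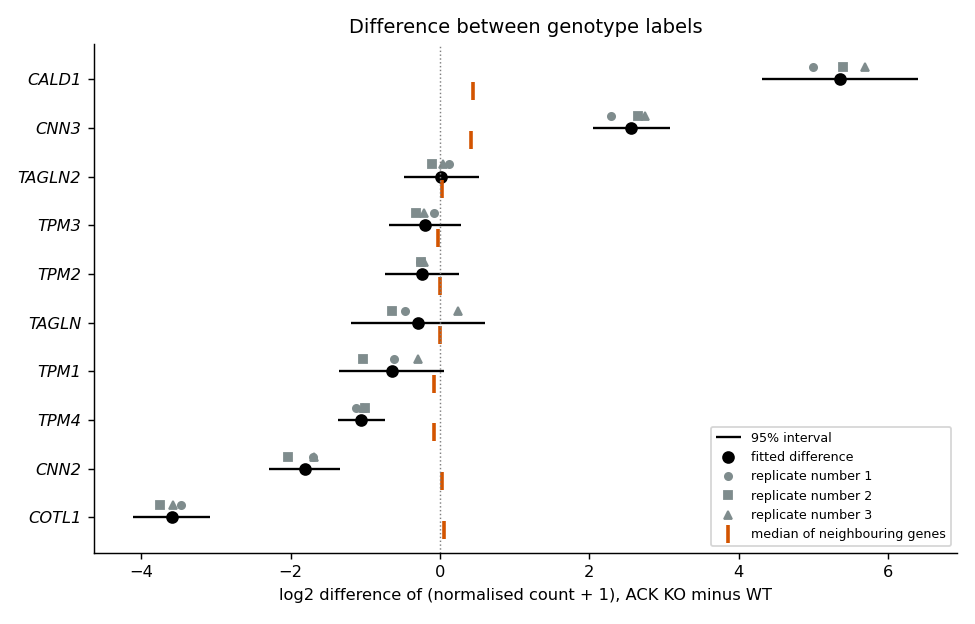
Log2 difference, ACK KO minus WT, of each gene (black dot) with its 95% interval from the fit to all genes (line), the difference within each replicate number (grey) and the median difference of neighbouring genes (orange bar). The intervals of CALD1 and CNN3 lie above 0, those of TPM4, CNN2 and COTL1 below 0, and the orange bars of CALD1 and CNN3 are the ones set off from 0.

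In WT libraries the level per kb of exon ran in the order TAGLN2, TPM3, CNN2, TPM4, COTL1, TPM2, TPM1, TAGLN, CNN3 and CALD1. TAGLN2 averaged 6769 ± 1432, TPM3 2890.2 ± 601, CNN2 1954 ± 204, TPM4 1156 ± 126 and COTL1 751 ± 120.1 normalised counts per kb (SD, n = 3 each), and the ranges of neighbours down to TPM2 did not overlap. TPM1, TAGLN and CNN3 overlapped one another, between 30.8 and 75.6. In KO-labelled libraries CNN2 (418 to 644) and TPM4 (509 to 585) were no longer apart, CNN3 stood next at 231 ± 16.2, and COTL1 at 62.8 ± 15.8 came after TPM2. With the median length of protein-coding transcripts in place of all exons, TPM3 came before TAGLN2 and TPM4 before CNN2 in both genotypes. TPM1, whose exons sum to far more than a transcript, then came the fifth in the KO-labelled libraries, before CNN3, and the sixth in the WT libraries, before TPM2.

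The replicates split the genes in a different way from the genotypes. TAGLN2 and TPM3, the most abundant genes per kb, were lower in replicate 1 than in the mean of replicates 2 and 3, by a log2 of -0.42 and -0.37 in the KO-labelled and of -0.57 and -0.56 in the WT libraries. The other 8 genes were higher in replicate 1 in both genotypes, from 0.10 (CNN3) to 0.66 (TPM1) in the KO-labelled and from 0.13 (CNN2) to 0.91 (CALD1) in the WT libraries. The WT figure of CALD1 rests on values of 0.875 in replicate 1 and 0 in replicates 2 and 3, at the bottom of the scale. TPM1 shows how far the split by replicate reaches, with replicate 1 higher by 0.66 in KO-labelled and 0.61 in WT libraries, about as large as its difference between genotypes. For CNN2, CNN3, CALD1, TPM4 and COTL1 the difference between genotypes was larger than any difference between replicates of a genotype.

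**Figure D4:**
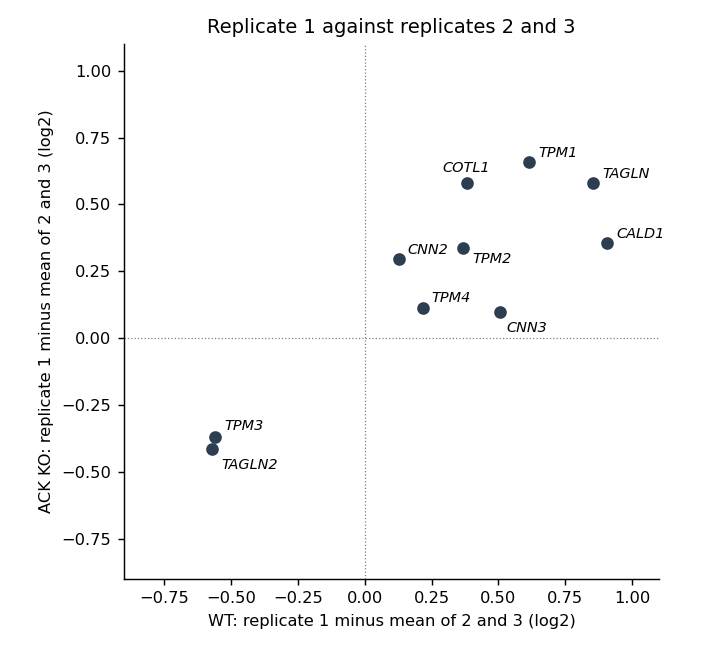
Replicate 1 minus the mean of replicates 2 and 3, in log2 units, for the 10 genes, in ACK KO (vertical axis) and WT libraries (horizontal axis). TPM3 and TAGLN2 are below 0 on both axes and the other 8 genes above 0 on both. The WT position of CALD1 rests on 0.875 in replicate 1 against 0 in replicates 2 and 3.

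CALD1 and CNN3 lie where the median difference of neighbouring genes was raised. Over the 100 tested genes around CALD1 on chromosome 7 the median log2 difference was 0.44, and over those around CNN3 on chromosome 1 it was 0.41. Set against these neighbours, the differences of CALD1 and CNN3 were 4.91 and 2.15. Over all tested genes of the chromosome the median was 0.39 for chromosome 7 and 0.005 for chromosome 1. The medians around the other 8 genes lay between -0.08 and 0.05, so their differences moved little. A larger difference in either direction than that of the gene itself was seen in 3 of the 100 neighbours of COTL1, 3 of those of CNN3, 1 of those of CALD1, 11 of those of TPM4 and 4 of the 84 of CNN2.

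The profiles most like those of the called genes over the 6 libraries were found by the root mean square distance of centred log2 values, which the difference between genotypes dominates. For COTL1 these were SLC44A1 (0.13), FBXO38-DT (0.16) and VAV1 (0.21). For CNN2 they were CARMIL1 (0.11), PLAGL1 (0.14) and OCA2 (0.15), and for TPM4 GPD1L (0.02), TRIM52 (0.03) and HDAC7 (0.07). For CNN3 they were CD276 (0.13), GSTA4 (0.15) and DLK1 (0.16), and for CALD1 SAMMSON (0.20), CASC15 (0.23) and RAB32 (0.26). Among the 10 genes themselves TAGLN2 and TPM3 were the closest pair, at 0.11.

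Further genes came from 9 lists, of which 6 cover the actin system and SRF, 1 the 5-lipoxygenase pathway and 2 hold markers of K562 and of smooth muscle and fibroblasts. Of their 72 tested genes 12 were called, 7 higher and 5 lower, against 10.3% of all tested genes, and with the block 39, 19 higher and 20 lower, against 39.7%. The 12 include the markers COL1A1 and HBE1. Pointed-end caps, which bind tropomyosin at the slow end of the filament, went both ways. TMOD1, the cap of the red cell skeleton, had 4635, 3372 and 3602 in the KO-labelled libraries, against 2558, 1992 and 1838 in the WT libraries (log2 difference 0.86, limma adjusted p = 0.0319). TMOD3, the broadly expressed cap, averaged 3766 ± 184 in KO-labelled and 5175 ± 216 in WT libraries (SD, n = 3 each; log2 difference -0.46, limma adjusted p = 0.0449). Both calls were lost without any 1 library other than WT replicate 1 (limma adjusted p up to 0.132 and 0.179), and that of TMOD3 also when libraries were scaled to equal sums. Including CNN1, 2 of the 6 tested relatives of calponins and tropomyosins rose and 1 fell, with a median log2 difference of 0.51. LMOD1, a leiomodin gene of smooth muscle, had 259, 33.8 and 53.1 in the KO-labelled libraries, against 24.8, 0.9 and 7.82 in the WT libraries, and was not called (limma adjusted p = 0.117; 7.19e-04 with the block). Among WT libraries LMOD1 reached 10 in replicate 1 alone. It thus entered the test through the KO-labelled libraries, where it was higher, and nothing is read from its blocked call.

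Among 9 relatives of coactosin with the cofilin fold 1 rose and 1 fell, with a median log2 difference of -0.15 (3 up and 3 down with the block). The shares of all tested genes called were 10.3% and, with the block, 39.7%. DSTN, which encodes the severing protein destrin and lies on chromosome 20, rose to 3913 ± 289 in KO-labelled, against 2436 ± 28.6 in WT libraries (SD, n = 3 each; limma adjusted p = 0.0132). GMFG, which encodes a haematopoietic glia maturation factor that acts on the Arp2/3 complex, had 106, 76.2 and 228 in the KO-labelled libraries, against 524, 382 and 537 in the WT libraries (log2 difference -1.95, limma adjusted p = 0.0303). The call of DSTN was lost without KO-labelled replicate 3 or WT replicate 2 or 3 (limma adjusted p up to 0.0837) and that of GMFG without any 1 library other than KO-labelled replicate 3 (up to 0.125). CFL1, the main cofilin gene, was not called.

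The actin genes themselves and SRF differed in part. ACTG1, the gamma cytoplasmic actin gene, fell to 24001 ± 3593 in KO-labelled, against 50382 ± 6653 in WT libraries (SD, n = 3 each; log2 difference -1.07, limma adjusted p = 0.0102, and 0.0507 without WT replicate 3). ACTB, the beta actin gene, averaged 100495 ± 15393 in KO-labelled and 118721 ± 28987 in WT libraries (SD, n = 3 each; limma adjusted p = 0.649). Of 14 tested genes of the SRF list, which includes ACTG1, 1 rose and 3 fell (2 up and 6 down with the block), with a median log2 difference of -0.15. Over all tested genes 10.3% were called, and 39.7% with the block. The largest fall in the list was that of FHL2, which encodes a LIM-domain cofactor of SRF, with 15.8, 3.77 and 4.55 in the KO-labelled libraries, against 325, 270.4 and 247 in the WT libraries (log2 difference -5.20, limma adjusted p = 0.00157). Among KO-labelled libraries FHL2 reached 10 in replicate 1 alone, so it entered the test through the WT libraries, where it was higher. MRTFA fell to 878 ± 24.0 in KO-labelled, against 1468 ± 177 in WT libraries (SD, n = 3 each; log2 difference -0.73, limma adjusted p = 0.0224). TGFB1I1, a focal adhesion gene of contractile cells, averaged 32.5 in KO-labelled and 3.89 in WT libraries (limma adjusted p = 0.045). It reached 10 in the KO-labelled libraries alone and so entered the test through the group where it was higher. Nothing is read from the calls of FHL2 and TGFB1I1, the latter being the 1 rise counted for the list. The calls of MRTFA and TGFB1I1 were lost without any 1 library other than WT replicate 1 (limma adjusted p up to 0.111 and 0.154), and SRF itself had a log2 difference of 0.045 ± 0.13 and was not called.

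Crosslinkers and myosin II are the partners on which tropomyosin and calponin act. Of 13 crosslinking, bundling and MICAL genes tested 1 rose, with a median log2 difference of 0.19 (6 up and 3 down with the block), beside the 10.3% and, with the block, 39.7% of all tested genes. That gene was MICAL2, which encodes an actin-oxidising enzyme and had 8269, 6679 and 7205 in the KO-labelled libraries, against 3038, 2342 and 2620.1 in the WT libraries (limma adjusted p = 0.00167). None of 13 genes of non-muscle myosin II and its regulators was called by limma, and with the block 2 were called higher and 2 lower. MYLK, 1 of the 2 called higher with the block, reached 10 among WT libraries in replicate 3 alone. It entered the test through the KO-labelled libraries, where it was higher, so nothing is read from that call.

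**Figure D5:**
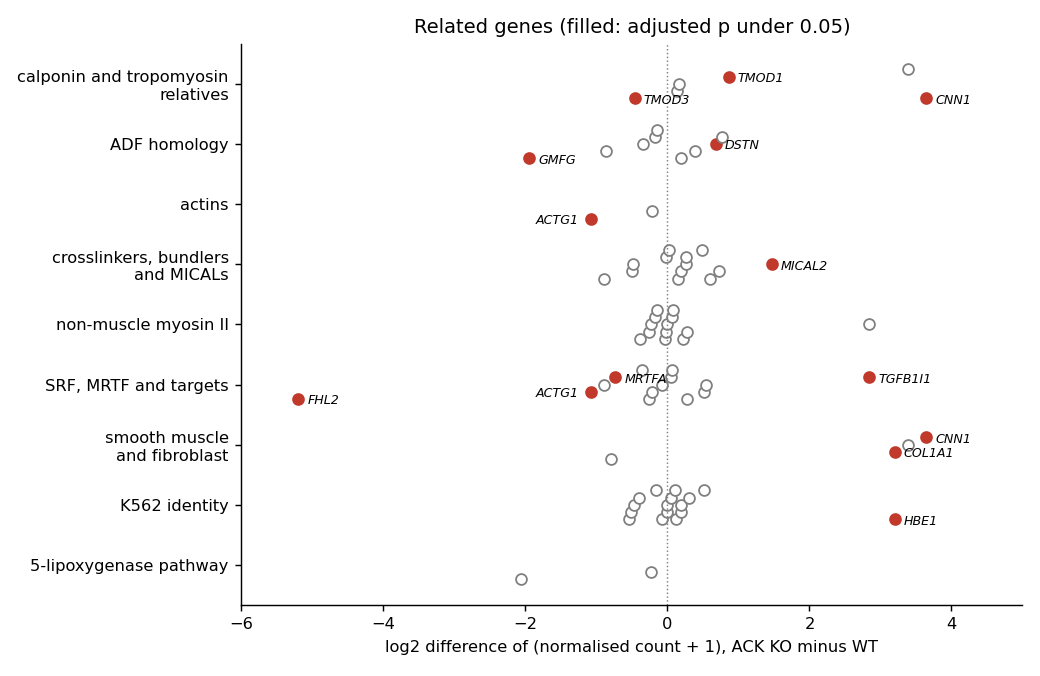
Log2 difference, ACK KO minus WT, of the tested genes in 9 lists of related genes and markers, 1 circle per gene and filled where the limma adjusted p is under 0.05. CNN1, COL1A1, HBE1 and the uncalled LMOD1 lie above 3, FHL2 below -5, and the myosin II genes have no filled circle.

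Since CALD1, CNN1, CNN3 and TAGLN are also expressed by smooth muscle and fibroblasts, a list of markers of those cells was examined, which itself holds CNN1. The table used here lists 7 of its 15 genes, and MYH11, the smooth muscle myosin gene, is not among them. Their summed values were 1063 to 2055 in the KO-labelled and 939 to 1208 in the WT libraries, and without CNN1 481 to 1132 in the KO-labelled and 874 to 1141 in the WT libraries, so that the ranges overlap either way. DES made up most of the sum without CNN1. Of the 3 tested besides CNN1, COL1A1 rose and DES and LMOD1 were not called, with log2 differences of 3.20, -0.80 and 3.38. COL1A1, which missed 10 in WT replicate 2, and LMOD1 met the filter only with their KO-labelled values, which were higher. Nothing is read from their calls, with or without the block. With CNN1 included, the median over the 4 tested genes was 3.29. None of the 4 overlapped between the groups, where 30.0% of all tested genes did not overlap. With the block 3 were called higher and 1 lower, against 19.7% and 20.0% of all tested genes. COL1A1, a collagen I gene, had 204, 74.6 and 121 in the KO-labelled libraries, against 11.98, 4.68 and 32.2 in the WT libraries (limma adjusted p = 0.0334, and up to 0.123 without any 1 library other than WT replicate 3). DES, the desmin gene, had means of 554 ± 170.4 in KO-labelled and 937 ± 146 in WT libraries (SD, n = 3 each; limma adjusted p = 0.135, and 0.0128 with the block). DCN and PDGFRB, which fibroblasts and mural cells express, stayed under 12 in all 6 libraries, and the part of other cells in the differences above was not tested. Of the 16 K562 markers only HBE1, an embryonic globin gene singled out after its values were seen, was called, with 12385 ± 4308 in KO-labelled and 1315 ± 256 (255.5) in WT libraries (SD, n = 3 each; limma adjusted p = 7.84e-04), and their median log2 difference was 0.018. With the block 5 of these 16 were called, HBE1 and BCR higher and GATA1, GFI1B and TFRC lower. Of all tested genes 10.3% were called, and 39.7% with the block.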

How the data were processed

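RNA of 6 K562 libraries, 3 labelled ACK KO and 3 labelled WT, was sequenced from stranded polyadenylated libraries with adapters that carry unique molecular identifiers, per the labels. The submitters' processing notes name STAR 2.7.2b, Salmon 1.1.0 and the package DESeq2 1.26.0 beside the build GRCh38, but not the role of each; annotation release, strand setting and use of the identifiers were not given in the sources used here. What the authors deposited is a signal, normalised counts per gene that are not whole reads, since at the best step 16.9% to 33.7% of a library's values under 25 lay within 0.02 of a whole multiple. Read depth is unknown, so the spread between libraries alone gives the precision. The lowest mean of any gene over the 6 libraries is 3.38.

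Of 19498 genes, 19392 were named from the name table given and 19112 were placed by GENCODE 29 (GRCh38), which also gave exon lengths, overlaps and shared 31-base words. Tests used limma 3.58.1 (R 4.3.3) on log2(value + 1), with an intensity trend, no term for the replicate number and Benjamini-Hochberg adjustment; fits without 1 library kept the genes of the full fit. Same-numbered KO-labelled and WT libraries deviated together, each correlation being above the limit of 0.1, so the numbers were also fitted as a block, and blocked results stand where they change a call. The crossed pairs of numbers 2 and 3 were above that limit too, at 0.257 and 0.281. The labels do not say what a number stands for. The fit was also run on simulated data with known changes. No set test was made.

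The members, lists, tests and alternatives were chosen with earlier results of these data known. The genes named are the 10 members, TNK2, up to 4 genes of each list (by smallest p, or by highest mean for K562 and smooth muscle markers) and the 3 nearest profiles of a called member; those with no value in the text stand in its counts. CFL1, SRF, DCN, PDGFRB, MYH11, HBE1, BCR, GFI1B, CNN3-DT, PCSK7 and the pseudogenes were named outside this rule.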

Additional observations from a re-analysis of the deposited data

How the results depend on the processing

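The calls of CNN2, CNN3, TPM4 and COTL1 held under all 16 alternatives, which refit values of the same 6 libraries. That of CALD1 held under the 15 in which it was tested, but CALD1 met the filter through its KO-labelled values alone. As the members were listed with this contrast known, nothing is read from any of these calls holding. The stricter filter removed it, leaving 4 members called. With the replicate number as a block, TPM1 and TPM3 were called as well (7 members) and no other member's call changed; without both libraries of number 1 TPM1 was (6 members). Over all tested genes, 1721 were called, 6612 with the block and 4731 without both libraries of number 1. At least 2-fold there were 1217, 2164 with the block and 1899 without both libraries of number 1. In the related lists there were 12, 39 with the block and 31 without both libraries of number 1. Fits without 1 library called 726 to 2183 genes, 696 to 1494 of them at least 2-fold, 5 to 16 genes of the related lists and 5 members each. Of these 5 members, 4 were at least 2-fold without WT replicate 1 or KO-labelled replicate 2, where TPM4 lay under 2-fold, and 5 in the other such fits. Differences near 0 changed sign: that of TAGLN2 (0.017) was -0.034 without both libraries of number 1, -0.013 set against its neighbours and -0.17 to 0.16 without 1 library, and those of HBG1 and HBG2 ran from -0.36 to 0.55 and from -0.35 to 0.47 without 1 library. Why counts moved was not tested, though leaving out libraries leaves fewer of them to the fit. Scaling to equal sums moved the median log2 difference of all genes to 0.08. Read depth is unknown, so the counting error of low values, such as those of CALD1 in WT, cannot be given.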
